A study of Homo sapiens with 8 samples.

Results

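Translational efficiency before any knockdown was described from the control libraries of MDA-MB-231, an established triple-negative breast cancer line. Cells given a control siRNA had 2 libraries of ribosome footprints (Ribo-seq) and 2 of RNA fragments from the same kind of lysate, which the labels call Input. These 4 libraries of the 8 in the series are the ones described, and the other 4 came from cells given an siRNA against ADAR1, the adenosine-to-inosine RNA editing enzyme. No cells without siRNA are among the samples, so "control" means a cell line that was also transfected. Gel purification took RNA of 30 nt for Ribo-seq and of 40 to 60 nt for Input, per the labels. Of 19892 genes in the table, 9497 had a mean count of 50 or more in both control assays, and these are the genes counted. A further 1605 genes reached that count in Input alone, 185 in Ribo-seq alone and 8605 in neither.

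Translation is paced at several steps. A message first recruits ribosomes at its 5′ end, which depends on the cap, the leader and the initiation factors, and footprints then mark where ribosomes sit along the coding sequence. The ratio of footprints to RNA, called translational efficiency, therefore reads the density of ribosomes along a message, not their number per message. Nor does it read the speed at which protein is made. Ribosomal protein mRNAs are the classic case of class-wide control: they begin with a C and a run of pyrimidines, the 5′ terminal oligopyrimidine (TOP) tract, through which mTOR signalling and LARP1 control their translation. Other mRNAs carry their own switches, such as upstream open reading frames in ATF4, iron-responsive elements in the ferritins, and ribosomal frameshifting in the antizymes.

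A few annotated transcript starts are given as examples with and without the tract, and do not stand for whole classes. All ribosomal proteins printed carry it, while 20 of the 64 with a sequence do not. The first 20 bases from the annotated RefSeq start (GRCh38.p14, sense strand, 5′ to 3′) are printed with the TOP tract in capitals, defined as a C at the first base with at least 4 further C or T bases, searched on the sense strand at that base only. The first lines are ribosomal proteins from the top to the bottom of the range of translational efficiency, then translation factors and TPT1, then a pair of genes from the bottom of all genes.
RPL37A (chr2:216498844-216498863, plus strand): CTTTCTgggctcggacctag
RPS21 (chr20:62387103-62387122, plus strand): CCTTTCTCTCTCgcgcgcgg
RPL13A (chr19:49487608-49487627, plus strand): CTTTTCCaagcggctgccga
RPLP0 (chr12:120201092-120201111, minus strand): CCTTCTCTCgccaggcgtcc
EEF1A1 (chr6:73521013-73521032, minus strand): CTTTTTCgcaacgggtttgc
EEF2 (chr19:3985444-3985463, minus strand): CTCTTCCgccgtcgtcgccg
TPT1 (chr13:45341164-45341183, minus strand): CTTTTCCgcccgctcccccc
KMT2A (chr11:118436492-118436511, plus strand): gcttcacttcacggggcgaa
ASPM (chr1:197146650-197146669, minus strand): agagtcaaaacgccatactt

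Control Input libraries held 15732757 and 16819821 estimated counts, and control Ribo-seq libraries 11975081 and 10492223. Over the genes counted, replicate libraries differed by an SD of 0.13 in Input and 0.26 in Ribo-seq on the log2 scale, and the authors' deposited translational efficiency of the replicate pairs by 0.29. The labels do not state whether the paired libraries of an assay came from different cultures, so every p-value reflects library-to-library spread, which may be technical. The line's own mesenchymal markers were present, with VIM at 4463 and 4467 TPM in Input and CD44 at 634.9 and 651.6 TPM. Of 13 luminal and receptor markers 7 had a mean of 1 TPM or more in Input. Among them were the keratins KRT8 (727.6 and 699.6 TPM) and KRT18 (606.1 and 627.1 TPM). The receptor ERBB2 was another, at 31.1 and 35.5 TPM in Input and 6.98 and 5.90 TPM in Ribo-seq. The oestrogen and progesterone receptors ESR1 and PGR were at or under 0.11 TPM in all 4 libraries. Of 7 basal markers 3 reached 1 TPM in Input, with MYLK at 23.3 and 23.4 TPM and KRT5, a basal keratin, at 0. The summed immune markers (235.7 and 236.1 TPM in Input) came almost wholly from CD68, a lysosomal protein, at 232.4 and 231.5 TPM.

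Translational efficiency differed widely from gene to gene in the control cells. It is given here as the log2 of Ribo-seq over Input per unit of length, fitted by edgeR, with 0 at the TMM centre of the 4 libraries. A value of 0 is thus a typical gene and not an absolute rate. Between the quartiles, values ran from -0.85 to 1.06, a 3.76-fold span, and the range between the 5th and 95th percentiles was 28.3-fold. In edgeR's quasi-likelihood test, adjusted by Benjamini-Hochberg over 12524 genes, 7963 of the 9497 genes counted (83.8%) had an adjusted p under 0.05 in either direction. Of these, 2505 of the 9497 genes counted (26.4%) were high, meaning an adjusted p under 0.05 and a log2 of 1 or more. A further 2046 (21.5%) were low, with a log2 of -1 or less. The 2 Ribo-seq libraries did not overlap the 2 Input libraries for 8728 genes (91.9%), so a call of a single gene is ordinary here and the size of its value carries the information. With libraries scaled by total count alone the median of all genes moved from 0.09 to -0.54, and 1418 genes were then high and 3536 low. Directions of values near 0 are therefore relative to the scaling. The medians of 12 lists were above 0 with TMM and below it with total count scaling: elongation and initiation factors, the CCT chaperonin, heat shock proteins, glycolysis, sterol synthesis, serine and one-carbon synthesis, collagens, solute carriers, immediate early factors, interferon-stimulated genes and the NF-kB pathway.

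Footprint and RNA levels were related across genes without following each other closely. The Spearman correlation of mean Input TPM with mean Ribo-seq TPM was 0.737 over the 9497 genes, which share libraries and are no independent replicates. Translational efficiency itself was nearly unrelated to the RNA level (Spearman 0.056). In the plot of footprint level against RNA level, ribosomal proteins and mitochondrial genome messages both had abundant RNA, and most of the former lay above the diagonal while all of the latter lay below it.

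**Figure D1:**
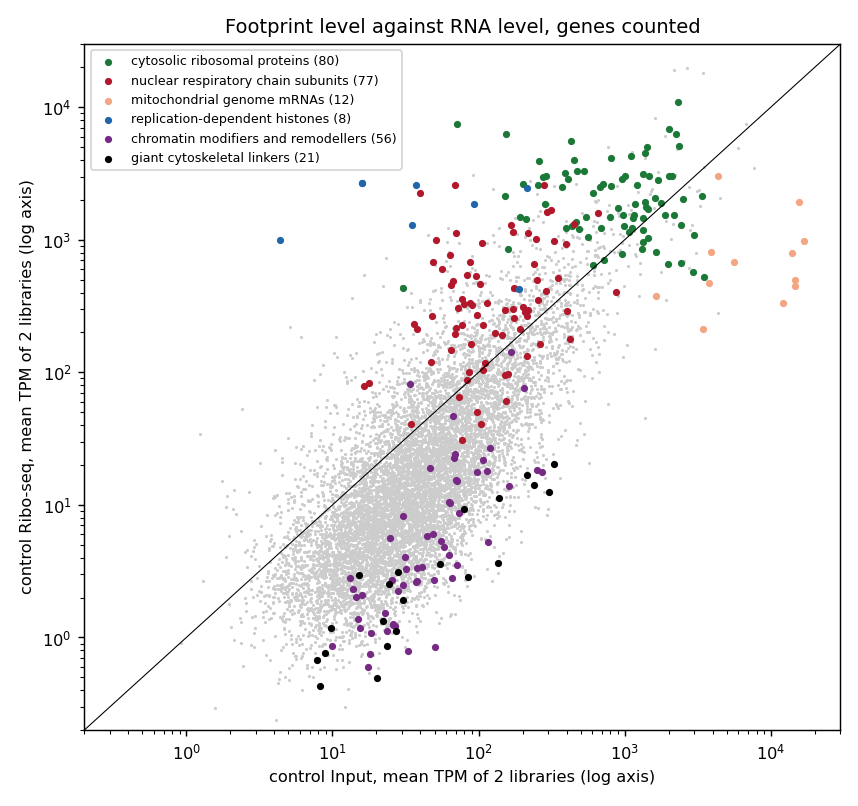
Mean TPM of the 2 control Ribo-seq libraries (y, log axis) against mean TPM of the 2 control Input libraries (x, log axis) for each gene counted, with 6 gene lists in colour, their sizes in brackets, and a line of equal TPM. Most ribosomal proteins, respiratory chain subunits and histones sit above the line, and mitochondrial genome messages, giant linkers and nearly all chromatin modifiers below it. Most of all genes counted also lie below the line.

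A fact about the deposited values touches every result that follows. The gene length that a count and its TPM imply was not the same in the 2 assays: relative to each library's own median, the Ribo-seq length was 1.15 times the Input length for the median gene, and ran from 0.201 to 2.20 times between the 1st and 99th percentiles. Values are given per length in each assay, as the deposited ratio also is, and medians on counts alone are given for most lists described. On counts alone 2257 genes (23.8%) were high and 1902 (20.0%) low; 1701 high and 1383 low genes were called both ways. For several genes whose call or size differed between the scales, both values are given.

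Of 47 lists of related genes with at least 5 members counted, 11 had a median of 1 or more and 5 a median of -1 or less. In order of their medians, the 11 were histones, the nuclear-encoded respiratory chain, cytosolic ribosomal proteins, mitochondrial import, the ER translocon group, mitochondrial ribosomal proteins, secreted matrix proteins, the proteasome, other TOP mRNAs, class I HLA genes and selenoproteins. The bottom held giant cytoskeletal linkers, messages of the mitochondrial genome, chromatin modifiers, DNA damage response genes and the polyamine pathway. With upper-quartile scaling, 8 lists were at 1 or more and 7 at -1 or less. Other TOP mRNAs (0.96), class I HLA genes (0.95) and selenoproteins (0.89) were then below 1. Lists were chosen by function, and the giant linkers by size as well. They are not all independent, since some share genes.

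**Figure D2:**
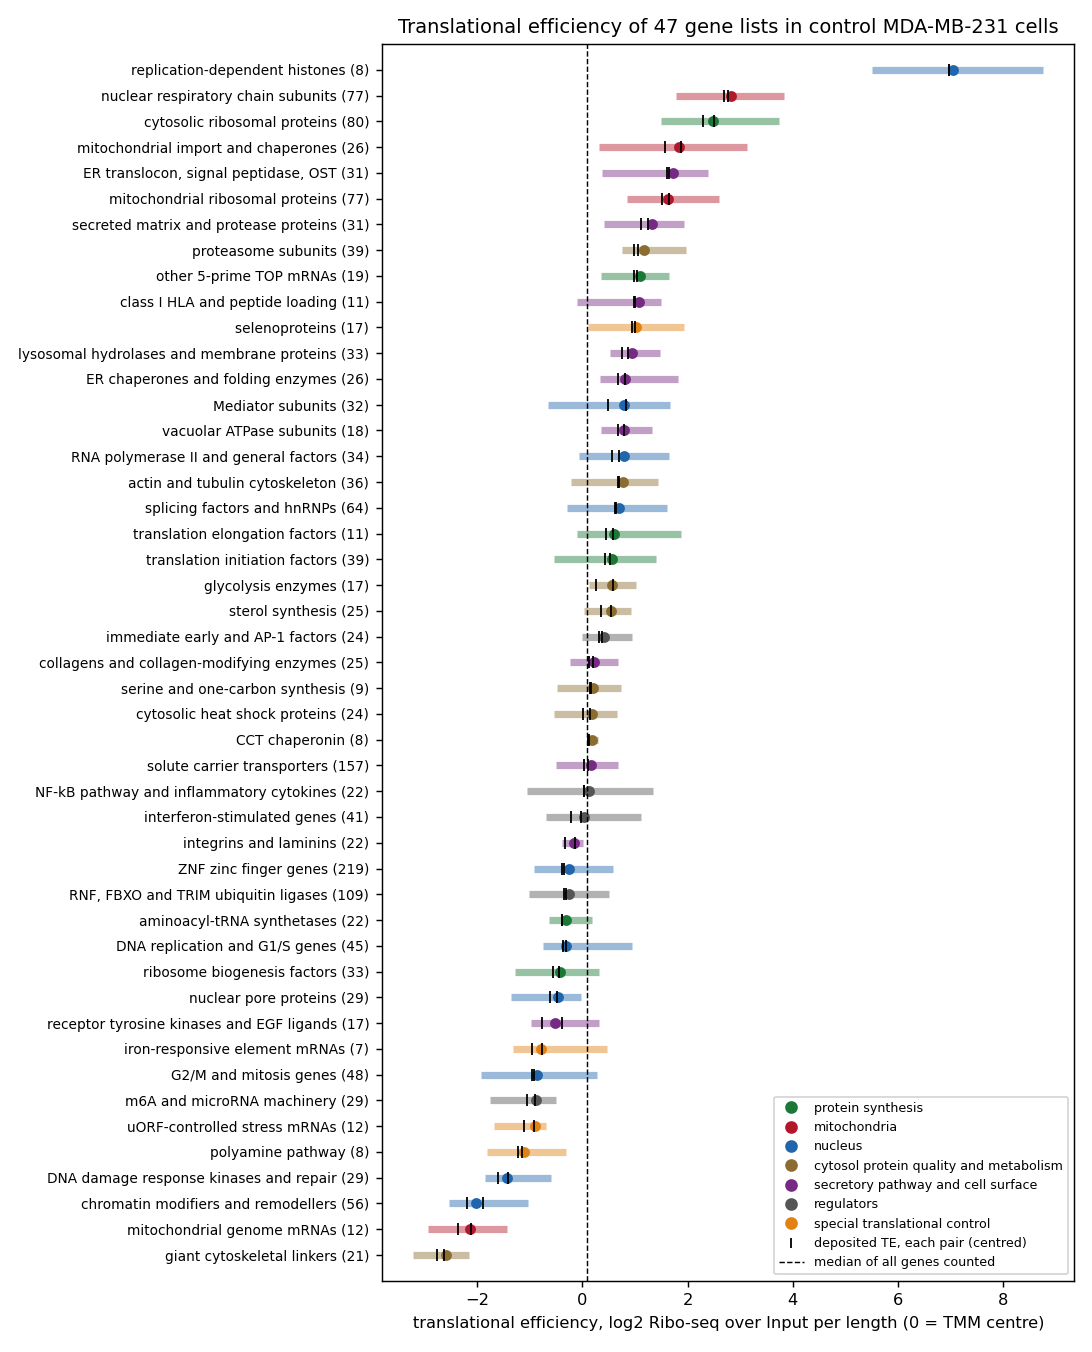
Translational efficiency (x, log2 per length, 0 at the TMM centre) of 47 gene lists, sorted by median; dots are medians of the fitted values, bars the range from the first to the third quartile of members, ticks the medians of the deposited ratio in each replicate pair, and the dashed line the median of all genes counted. Numbers in brackets are members counted. Histones stand apart at 7.04, respiratory chain subunits and ribosomal proteins follow at 2.82 and 2.48, and giant linkers lie lowest at -2.60.

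Ribosomal proteins were examined first among the parts of the translation machinery. Of 80 messages, 68 were high and 1 low, against 26.4% and 21.5% of all genes counted, with a median of 2.48 (2.82 on counts alone). The small subunit had a median of 2.72 and the large subunit 2.32. RPL37, a large subunit protein, stood at 68.4 and 74.3 TPM in Input and at 7571 and 7483 TPM in Ribo-seq, a log2 of 8.10 ± 0.09 (SE). It was the highest of all 80, but its Input length was many times its Ribo-seq length (a ratio of Ribo-seq to Input of 0.0994), and on counts alone its value was 4.70. RPL37A was similar at 6.72 per length and 4.59 on counts alone. RPS21 (5.08) and RPL13A (1.96) mark the upper and middle parts of the range.

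RPLP0, the stalk protein of the large subunit, was the only ribosomal protein that was low. Its RNA was the more abundant, at 3503 and 3510 TPM in Input against 526.6 and 520.1 TPM in Ribo-seq, a log2 of -1.37 ± 0.06 (edgeR adjusted p = 3.06e-08). On counts alone the value was -0.43, above the limit for a low call. RPLP0 nevertheless begins with a TOP tract, as printed above.

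The TOP tract was common among these messages. It was found at 44 of the 64 ribosomal protein starts with a sequence in the table (68.8%), and at 8 of 10 other TOP mRNAs, against 459 of 7933 genes counted (5.8%) and 4.0% of all 27305 promoters. Ribosomal proteins with the tract had a median of 2.96 and the 20 without it 2.18. Outside both lists, 407 genes with the tract had a median of 0.10 and 7452 without it 0.07. The tract stood at 9 of 64 starts (14.1%) of nuclear respiratory chain subunits. It stood at 5 of 47 starts (10.6%) of chromatin modifiers, a mostly low list that includes KMT2A. Both shares were above that of all genes counted. Annotated starts are single positions, and a missing tract says only that these letters do not stand there.

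Translation factors spread over nearly the whole range. EIF5A, which helps ribosomes past difficult peptide bonds, stood at 1143 and 1110 TPM in Input and 4768 and 4383 TPM in Ribo-seq (log2 3.40 ± 0.08). EEF1A1, the factor that delivers aminoacyl-tRNA, was at 1.09 ± 0.06 (0.92 on counts alone) and EEF2, the translocase, at -0.74. Elongation factors as a list had 5 high and 0 low of 11, with a median of 0.60 (1.39 on counts alone). Both EEF1A1 and EEF2 carry the tract, as does TPT1, the translationally controlled tumour protein, which was high at 2.78 (0.87 on counts alone).

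Initiation factors divided, with 16 high, 8 low and 15 neither of 39 and a median of 0.57 (0.83 on counts alone). EIF4E, the cap-binding protein, lay highest at 4.43 ± 0.09 (1.50 on counts alone). EIF5B, the GTPase of subunit joining, lay lowest: it had 143.4 and 134.4 TPM in Input and 3.80 and 4.42 TPM in Ribo-seq, a log2 of -3.70 ± 0.09. PABPC1, the main poly(A)-binding protein and itself a TOP mRNA, was also far down, at 1398 and 1361 TPM in Input and 39.2 and 51.6 TPM in Ribo-seq (log2 -3.55 ± 0.11). The other TOP mRNAs, of which PABPC1 was the lowest and EIF3F the highest at 3.28 (1.77 on counts alone), had 11 high and 1 low of 19 and a median of 1.09 (1.07 on counts alone).

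Genes that charge tRNA or build ribosomes did not share the high values of the ribosome itself. Aminoacyl-tRNA synthetases had 2 high and 2 low of 22 (median -0.31 per length, 0.52 on counts alone), from EPRS1 at -1.88 to AIMP1, a scaffold of the synthetase complex, at 1.29; on counts alone these were -0.78 and 0.79, and neither was called. Ribosome biogenesis factors had 4 high and 11 low of 33 (median -0.43 per length, 0.24 on counts alone). NOP10, a small protein of the pseudouridylation particles, was at 2.59 and UTP20, a very large processome component, at -3.91.

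Oxidative phosphorylation is encoded by 2 genomes, and their messages lay mostly on opposite sides of the centre. Of 77 nuclear respiratory chain subunits 66 were high and 0 low, with a median of 2.82 (2.80 on counts alone). Of 12 messages of the mitochondrial genome, which mitochondrial ribosomes translate inside the organelle, 0 were high and 9 low. Their median was -2.14 (-0.91 on counts alone, where 6 were low and 1 high). How completely Ribo-seq recovers the footprints of mitochondrial ribosomes was not tested, so these values do not show how much the messages are translated. All 77 nuclear subunits had a value above 0 with TMM, from UQCRC2 at 0.02 upward, while 3 were below 0 with upper-quartile and 6 with total count scaling.

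The complexes differed in their medians. Complex IV had 11 high of 11 and a median of 3.74, complex III a median of 3.84, complex I 2.66, complex V 2.38 and complex II 1.69. ATP5F1E, the epsilon subunit of ATP synthase, stood at 36.0 and 44.0 TPM in Input and 2381 and 2150 TPM in Ribo-seq (log2 7.20 ± 0.13, 4.07 on counts alone). The alpha and beta subunits of the same enzyme, ATP5F1A and ATP5F1B, were at 0.14 and 0.27. The flavoprotein SDHA, at 0.03, was likewise far below its membrane anchors SDHC and SDHD, at 3.32 and 2.70. These subunits, other than ATP5F1E and SDHD, were picked after their values were seen.

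Mitochondrial genome messages were among the most abundant RNAs of the cell. ND4, a complex I subunit, had 12418 and 11774 TPM in Input and 354.5 and 316.3 TPM in Ribo-seq, a log2 of -3.79 ± 0.09. COX1, the catalytic subunit of complex IV, had 16064 and 15117 TPM in Input and 2093 and 1755 TPM in Ribo-seq (log2 -1.64 ± 0.10). ATP8 was the exception above 0, at 3895 and 4881 TPM in Input and 3675 and 2385 TPM in Ribo-seq (log2 0.85 ± 0.19; on counts alone 2.19, a high call). ATP8 and ATP6 lie on a single overlapping message, as do ND4L and ND4, so reads there cannot be told apart with certainty. Within that shared message ATP6 was at -3.52. All 12 lay below the median of the genes nearest to them in implied length, where 49.9% of all genes lie above it.

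Mitochondrial ribosomal proteins and most import factors were high as well. Mitochondrial ribosomal proteins had 55 high and 0 low of 77 (median 1.62 per length, 1.76 on counts alone), with MRPS33 highest at 5.11 (2.66 on counts alone) and MRPL37 lowest at -0.46. Import factors and chaperones had 17 high and 1 low of 26 (median 1.84 per length, 1.31 on counts alone). TIMM13, a small carrier of the intermembrane space, was highest at 5.06, and LONP1, the large matrix protease, lowest at -1.44 (-0.32 on counts alone, not called). Within that list the 13 TIM proteins had a median of 1.88 and the 7 TOM proteins 2.92, but the 6 chaperones and proteases had a median of -0.03, with 2 high and 1 low.

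**Figure D3:**
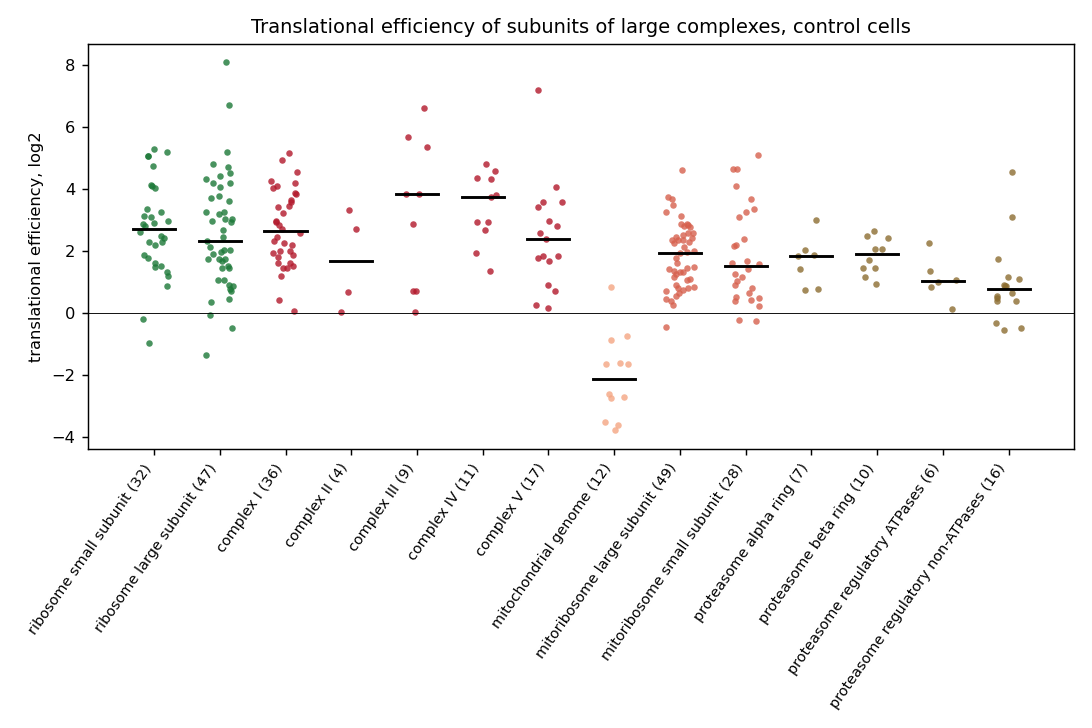
Translational efficiency (y, log2 per length) of each member counted of the cytosolic ribosome, the respiratory chain by complex, the mitochondrial genome, the mitochondrial ribosome and the proteasome; points are genes, spread sideways at random, bars are medians and brackets give the number of genes. Complex III and IV have the highest medians (3.84 and 3.74), and the mitochondrial genome is the group whose median is below 0 (-2.14).

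Histones gave the highest values of all genes. Replication-dependent histone messages end in a stem-loop and not in a poly(A) tail, and are made in S phase. Of 70 listed genes, 8 were counted, and all 8 were high, with a median of 7.04 (7.53 on counts alone). H2BC21 (chromosome 1, 149884459 to 149886682) had 4.79 and 3.94 TPM in Input and 988.5 and 1009 TPM in Ribo-seq, a log2 of 9.22 ± 0.11. H1-2, a linker histone, stood at 90.7 and 94.6 TPM in Input and 1867 and 1857 TPM in Ribo-seq (log2 5.71 ± 0.08). H2AX, which is also made as a polyadenylated message, was the lowest of them at 2.57.

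Most histone genes did not enter the count because Input held almost no reads of them. A further 39 had footprints but a mean Input count under 50: their median mean count was 8704 in Ribo-seq and 2.22 in Input, and no Input mean was above 23.9. H1-4, with the most footprints of these and named for that after values were seen, had 41238 and 31958 counts in Ribo-seq and 12 and 14 in Input. The other 23 were below 50 in both assays. The 8 counted genes passed through their Input reads, so their values are not those of the family as a whole. H2AC18 and H2AC19 are near-identical copies with equal deposited values (log2 8.76 each) and cannot be told apart. How completely Input recovers histone RNA was not tested.

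Transcription and splicing genes had members at both ends of the range. RNA polymerase II subunits had 9 high and 1 low of 12 (median 1.91), from POLR2F at 5.30 down to the largest subunit POLR2A at -2.20. The list of polymerase and general factors as a whole had a median of 0.78 (0.73 on counts alone) and ran from GTF2H5 at 6.31 (2.53 on counts alone) to the elongation factor SUPT6H at -2.40. Mediator, the bridge between activators and polymerase, had 13 high and 5 low of 32 (median 0.80 per length, 0.53 on counts alone), with MED28 at 4.00 (0.88 on counts alone) and MED13L at -2.83. Sm and core snRNP proteins had 8 high and 0 low of 11 (median 3.82 per length, 2.20 on counts alone), with SNRPD1 at 4.91 (also 2.20 on counts alone). PRPF proteins and U5 factors had 0 high and 6 low of 9 (median -1.30; on counts alone -0.70, with 1 high and 1 low), with the helicase SNRNP200 at -2.37.

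Most chromatin modifiers and remodellers were low. Of 56 counted, 42 were low, 12 neither and 2 high, with a median of -2.02 (on counts alone -1.33, with 32 low). HDAC1 to HDAC3 had a median of -0.04, with 0 low. All 13 methyltransferases of the KMT2, SETD, NSD and ASH1L group were low (median -3.02), as were all 7 CHD remodellers counted (median -2.70). KMT2A, the H3K4 methyltransferase rearranged in leukaemia, had the lowest value of all 9497 genes: 50.7 and 49.6 TPM in Input against 0.780 and 0.901 TPM in Ribo-seq, a log2 of -4.53 ± 0.09 (edgeR adjusted p = 2.08e-10). Its Ribo-seq libraries still held 141 and 140 counts. SMARCB1, a small core subunit of SWI/SNF, was the highest at 2.62, while that complex as a whole had a median of -1.20 (-0.37 on counts alone).

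Repair and mitosis genes were low more often than the 21.5% of all genes counted, per length. DNA damage kinases and repair genes had 0 high and 19 low of 29 (median -1.44 per length, -0.76 on counts alone), and BLM, a helicase, was lowest at -3.51. G2/M and mitosis genes had 9 high and 23 low of 48 (median -0.87; on counts alone -0.15, with 14 low). ASPM, a spindle pole protein, had 70.0 and 67.2 TPM in Input and 1.29 and 1.71 TPM in Ribo-seq (log2 -4.16 ± 0.11), while CKS2, a small partner of cyclin-dependent kinases, was at 3.19. Replication and G1/S genes had 9 high and 8 low of 45, or 17.8% low, a share under that of all genes (median -0.32 per length, 0.27 on counts alone), between E2F1 at -3.16 and RPA3 at 3.98. The MCM helicase had 0 high and 0 low of 6. ZNF genes, the largest family of transcription factors, had 33 high (15.1%) and 51 low (23.3%) of 219 counted. The low share was near that of all genes (median -0.25, and -0.27 on counts alone, with 16 high). A further 173 ZNF genes reached the count limit in Input alone, with too few footprints to enter these shares. Among all genes 1605 did so, beside 9497 counted. Factors of m6A and microRNA had 1 high and 13 low of 29 (median -0.88 per length, -0.87 on counts alone).

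Among cytosolic machines, the proteasome was high, and the chaperonin was near the centre per length but not on counts alone. Proteasome subunits had 23 high and 0 low of 39 (median 1.16 per length, 1.71 on counts alone). The beta ring, which holds the proteolytic sites, had 9 high of 10 and a median of 1.89, the alpha ring 1.84, and the non-ATPase regulatory subunits 0.76. SEM1, a very small lid subunit, was highest at 4.54, and PSMD1, the largest, lowest at -0.56. The 8 subunits of the CCT chaperonin, which folds actin and tubulin, lay close together: 7 were between -0.11 and 0.35, and CCT5 was apart at 1.09 ± 0.07. On counts alone their median was 1.07 and 5 of 8 were high. ACTB was high at 1.54 ± 0.06, with 6680 and 6764 TPM in Input and 7355 and 7707 TPM in Ribo-seq, and GAPDH was near the centre at 0.25 ± 0.09 (1.08 on counts alone, a high call). Glycolysis (median 0.56), sterol synthesis (0.54), serine and one-carbon synthesis (0.20) and cytosolic heat shock proteins (0.18) had medians of 0.92, 0.81, 0.33 and 0.21 on counts alone.

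Giant cytoskeletal and scaffold proteins formed the lowest list, with 21 low of 21 (median -2.60 per length; on counts alone -1.64, with 17 low). SYNE2, which links the nucleus to actin, was lowest, with 19.2 and 21.3 TPM in Input and 0.560 and 0.421 TPM in Ribo-seq (log2 -3.99 ± 0.13). VPS13B, a lipid transfer protein, was the highest at -1.02. Size is part of how this list was chosen, and its median implied Ribo-seq length was 10.1 relative to the library median. In the longest of 10 groups by that length, 77.8% of the genes counted were low. The low count of this list is therefore in part set by its choice. The actin and tubulin list, by contrast, had 15 high and 6 low of 36 (median 0.78 per length, 1.21 on counts alone), from the light chain MYL9 at 3.82 to the large adaptor TLN1 at -3.39.

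Secretory classes were moderately high, and surface classes were not. Components of the ER translocon, signal peptidase and oligosaccharyltransferase had 18 high and 0 low of 31 (median 1.72 per length, 1.20 on counts alone), led by SPCS1 at 4.45 (2.12 on counts alone). Secreted matrix and protease proteins had 18 high and 2 low of 31 (median 1.32 per length, 1.15 on counts alone), between the protease inhibitor CST3 at 2.46 and the large proteoglycan HSPG2 at -1.51 (-0.50 on counts alone, not called). ER chaperones had 12 high and 0 low of 26 (median 0.82 per length, 1.01 on counts alone), and lysosomal proteins 14 high and 1 low of 33 (median 0.93 per length, 1.16 on counts alone). Both stood clear of genes of their own implied length, 0.81 and 0.94 above that median, with 23 of 26 and 29 of 33 members above it. Collagens and their enzymes were typical in value (median 0.21 per length, 0.66 on counts alone; 4 of 25 high), but 24 of 25 lay above the genes of their length, by 1.25 at the median. Solute carriers, a broad set of 157 transporters, had 26 high (16.6%) and 22 low, with a median of 0.16 (0.05 on counts alone). Integrins and laminins had 1 high and 1 low of 22 (median -0.15 per length, 0.36 on counts alone), and receptor tyrosine kinases and EGF ligands 2 high and 3 low of 17 (median -0.53 per length, -0.26 on counts alone).

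Class I antigen presentation genes spread from high light chain to low regulator. B2M, the invariant light chain, stood at 770.0 and 766.1 TPM in Input and 4956 and 5023 TPM in Ribo-seq (log2 4.08 ± 0.07). The heavy chains HLA-B and HLA-E were at 1.47 and 1.45, within their standard errors of each other, and HLA-C was at 2.98 ± 0.07. Reads of HLA genes can be shared between near-identical copies, so the single values are uncertain. The peptide transporter TAP1 (-0.41 ± 0.14) and the regulator NLRC5 (-1.32 ± 0.14, and -0.41 on counts alone) were below 0. In all, 6 of 11 were high and 2 low (median 1.07; on counts alone 0.63, with 5 high and 0 low).

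Signalling and interferon genes had no common direction. Interferon-stimulated genes had 12 high (29.3%) and 8 low (19.5%) of 41, shares near those of all genes, with a median of 0.02 (on counts alone 0.15, with 11 high and 1 low), from IFI6 at 3.35 to SAMD9 at -2.45. ADAR, whose product ADAR1 the study depletes, was low in control cells: 106.2 and 110.2 TPM in Input and 19.1 and 20.3 TPM in Ribo-seq, a log2 of -1.08 ± 0.07 (-0.88 on counts alone, short of the limit for a low call). Against genes of like implied length, however, ADAR lay 0.24 above the median. Genes of the NF-kB pathway and its cytokines had 7 high and 6 low of 22 (median 0.12 per length, 0.47 on counts alone), between CXCL8 at 2.60 and BIRC2 at -2.54. Immediate early and AP-1 factors had 6 high and 3 low of 24 (median 0.41 per length, 0.07 on counts alone), between ATF3 at 2.89 and SRF at -2.51.

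Messages with known translational switches were then read one by one. Among 12 stress-response genes with upstream open reading frames, 5 were low and 1 high, with a median of -0.91 (-0.83 on counts alone). ATF4, the effector of the integrated stress response, stood at 391.1 and 394.4 TPM in Input and 37.6 and 36.3 TPM in Ribo-seq (log2 -2.03 ± 0.08). PPP1R15A, the phosphatase subunit that ends that response, was at -1.32 ± 0.07 (-0.40 on counts alone, not called), and ATF5 (-0.77 ± 0.15) and DDIT3 (-0.45 ± 0.18) did not reach the limit for a low call. CEBPB, whose upstream frame sets which isoform is made, was high at 1.91 ± 0.08. Footprints on upstream frames and on the main frame are not separated in a value per gene.

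Iron and polyamine genes also included abundant messages with few footprints for their RNA. Of 7 mRNAs with an iron-responsive element, 1 was high and 3 low (median -0.78 per length, 0.14 on counts alone). Of these 7, 3 lay above 0, with SDHD highest at 2.70. FTL and FTH1, the ferritin chains, carry an iron-responsive element in the leader, where iron regulatory proteins block initiation. FTL had 4372 and 4300 TPM in Input and 298.0 and 267.0 TPM in Ribo-seq (log2 -2.56 ± 0.08), and FTH1 was at -1.08 ± 0.08 (-0.98 on counts alone). TFRC, the transferrin receptor, which carries its elements at the other end of the message, was at 0.60 ± 0.08. In the polyamine pathway 4 of 8 were low and 1 high (median -1.11 per length, -0.97 on counts alone). ODC1, the rate-limiting enzyme, had 291.1 and 283.7 TPM in Input and 24.8 and 19.4 TPM in Ribo-seq (log2 -2.31 ± 0.11), and its positive regulator AZIN1 was at -2.12 ± 0.10. The antizymes OAZ1 (-0.13 ± 0.07) and OAZ2 (1.90 ± 0.11), which inhibit ODC1 and need a frameshift, were typical and high. Selenoproteins, which recode a stop codon, had 9 high and 1 low of 17 (median 1.01 per length, 1.11 on counts alone), with the small SELENOM at 3.47, GPX4 at 0.97 (1.59 on counts alone, a high call) and SELENON at -2.13.

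**Figure D4:**
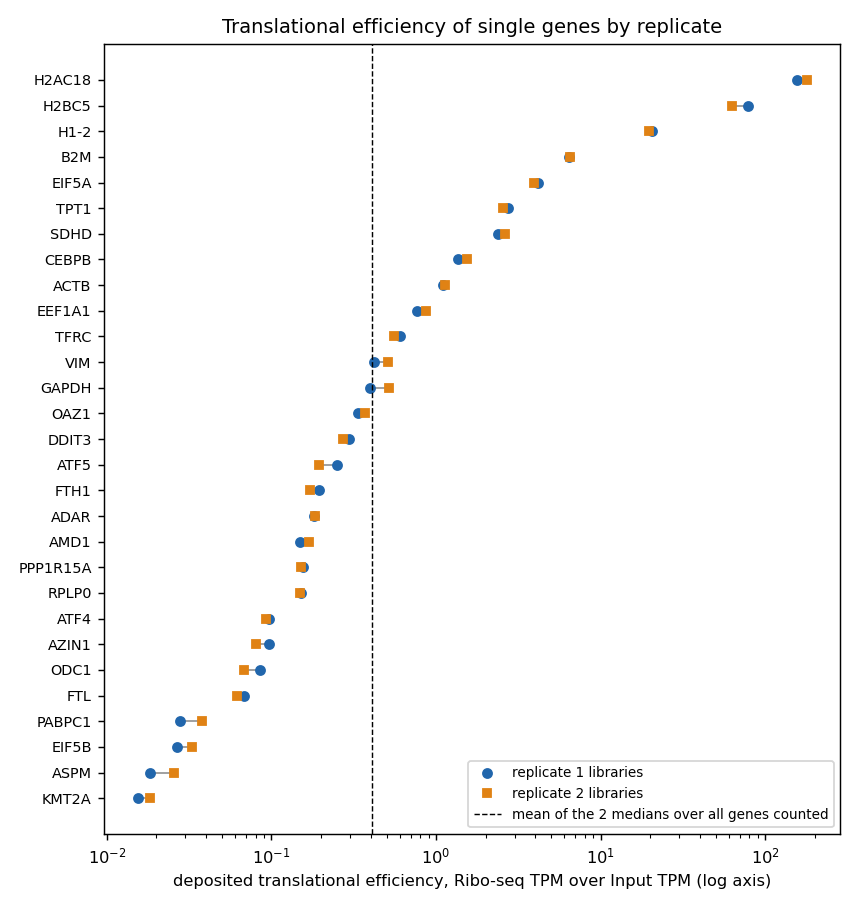
Deposited translational efficiency (x, Ribo-seq TPM over Input TPM, log axis) of 29 genes in the replicate 1 libraries (circles) and the replicate 2 libraries (squares), sorted by fitted log2; the dashed line is the mean of the 2 medians over all genes counted. For most genes the 2 points lie close together beside a range that runs from KMT2A at 0.0154 and 0.0182 to H2AC18 at 155.7 and 179.3.

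Length was far more closely related to translational efficiency than the RNA level was. Ribosome density is known to be higher on short coding sequences in many cells. No table of coding lengths was used, so length here is that implied by the Ribo-seq count and TPM, relative to the library's median. Across the 9497 genes the Spearman correlation was -0.765. Entry was by read count and not by density, so 1605 genes with enough Input reads but too few footprints are absent. How their absence bears on the relations to length and to RNA level was not tested. The genes were cut into 10 groups by length. The shortest group had a median of 2.31, with 86.4% high and 0.6% low, and the longest group a median of -1.66, with 0.3% high and 77.8% low. Medians declined from each group to the next. The implied length is itself a term of the value, so part of this relation is built in. With the length implied by Input, the correlation of the value per length was -0.477. On counts alone it was -0.536 with the Ribo-seq length and -0.680 with the Input length. Counts alone are not divided by length, so these values are not free of a built-in part either. Medians on counts alone ran from 1.67 in the shortest group by Ribo-seq length to -1.03 in the longest.

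Genes were then set against others of like length, in 20 groups by implied Ribo-seq length. Nuclear respiratory chain subunits lay 0.71 above the median of their length group, with 62 of 77 above it, and ribosomal proteins 0.46 above it, with 62 of 80. Proteasome subunits lay 0.63 above it, with 36 of 39. Chromatin modifiers lay 0.35 below it, with 40 of 56 below, and giant linkers 0.70 below it. DNA damage genes were 0.09 below theirs, close to their length group despite a list median of -1.44. Histones (4.68 above) and mitochondrial genome messages (3.84 below) lay the farthest from genes of their length, while selenoproteins were 0.52 below theirs despite a median of 1.01. These positions are descriptions, with no test over a list.

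**Figure D5:**
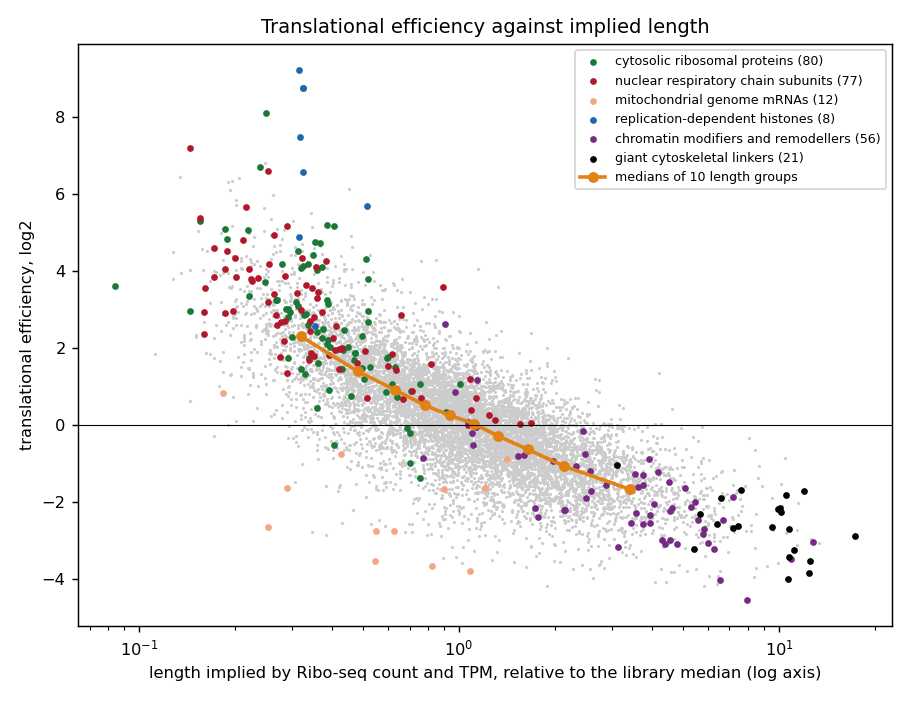
Translational efficiency (y, log2 per length) of each gene counted against the length implied by its Ribo-seq count and TPM (x, relative to the library median, log axis), with 6 lists in colour and the medians of 10 length groups as a line. The line descends from 2.31 to -1.66; histones lie far above it and mitochondrial genome messages far below it.

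The same pattern was seen in the libraries that the description above did not use. In cells given the ADAR1 siRNA, translational efficiency across the 9497 genes had a Spearman correlation of 0.949 with that of the controls. Ribosomal proteins had a median of 2.47 there, nuclear respiratory chain subunits 2.88, mitochondrial genome messages -2.18, chromatin modifiers -1.88 and giant linkers -2.34. In the interaction of assay and siRNA over all 8 libraries, edgeR's quasi-likelihood test (Benjamini-Hochberg adjusted) called 0 of the genes counted higher (0%) and 3 lower (0.0316%) after ADAR1 siRNA. At an unadjusted p under 0.05 the same test held 1031 higher and 1410 lower of the 9497 genes counted. The few adjusted calls therefore do not show that translational efficiency was unchanged. With the replicate number as a block, edgeR called 98 higher and 225 lower of the 9497. Some list medians differed more between the siRNAs. Class I HLA genes were at 1.07 in control and 1.92 in ADAR1 siRNA libraries, collagens at 0.21 and 0.95, serine and one-carbon synthesis at 0.20 and -0.61, and aminoacyl-tRNA synthetases at -0.31 and -1.06. The interaction without the block called 0 members of these 4 lists.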

How the data were processed

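Only the 4 control siRNA libraries entered the main comparison, and the 4 ADAR1 siRNA libraries served for the interaction. Per the submitters' processing notes, cutadapt, Bowtie2, STAR and featureCounts were used with GRCh38 (hg38). Of versions, settings and strand handling the sources used here say nothing. The deposited table gives, for each of 19892 genes and each library, an estimated count that the authors did not normalize (89.5% to 90.1% of control values were whole) and a TPM value, which the authors scaled by length and depth to a fixed sum per library. It also holds the authors' deposited translational efficiency, a ratio that equalled Ribo-seq TPM over Input TPM of the same replicate number for 100% of 13436 and 13300 genes, within 0.001. Of the gene numbers, 19669 matched a symbol.

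Counts were rounded and fitted with edgeR 4.0.16 (R 4.3.3; TMM, filterByExpr, quasi-likelihood test of Ribo-seq against Input, two-sided). The test had been planned on counts alone. Because the count and TPM of a gene imply different lengths in the 2 assays, an offset per gene and library for the implied length was added to the fit, which is a departure from that plan, and the fit on counts alone became an alternative. The sources used here do not say why the lengths differ. With 2 libraries on each side, exact permutation reaches no p below 0.333, so calls rest on the spread that the model shares between genes. In simulated counts of 12406 genes, 50 genes were changed for each size and direction, and 9298 others had a true log2 of 0. A 4-fold difference was called for 100% of genes in both directions. A 2-fold one passed the adjusted p for 100% (higher) and 98% (lower) but the fold limit for 42% and 62%. In the data 83.8% of genes counted had an adjusted p under 0.05, so the simulation does not show how calls fare when most genes differ. It also gave each gene the same spread in both assays. In the data, replicates differed by an SD of 0.13 in Input and 0.26 in Ribo-seq, so calls under unequal spread were not tested.

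The genes, the 48 lists (noncoding RNA had no member counted) and the tests were chosen with earlier results of these data known, so no list supports its own direction. Genes were named by a rule: the 8 highest and 8 lowest calls, the highest and lowest member of each list, 20 set genes, and members of lists of 15 or fewer; others are said to be so, apart from ribosomal proteins with a printed start and the extreme member of a subgroup. The correlation of deviations between same-numbered control libraries was 0.0035 and that of ADAR1 siRNA libraries 0.385, so numbers were not taken to pair the libraries throughout. Start sequences and coordinates are RefSeq's for GRCh38.p14; 7933 of 9497 genes had a sequence. DESeq2 1.42.0 and limma 3.58.1 served as alternatives. A few genes within the rule are not reported here but remain in the counts.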

Additional observations from a re-analysis of the deposited data

Results flagged for a closer look

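For 3 genes the translational efficiency differed between the siRNA groups by the interaction of assay and siRNA (edgeR quasi-likelihood test over all 8 libraries, Benjamini-Hochberg adjusted). H1-2, a linker histone, was lower by a log2 of -1.38 after ADAR1 siRNA (adjusted p = 0.0278): the deposited ratio was 20.6 and 19.6 in control and 6.55 and 8.60 in ADAR1 siRNA libraries, with Input rising from 90.7 and 94.6 to 231.5 and 197.4 TPM and Ribo-seq at 1867 and 1857 against 1517 and 1697 TPM. TRAF6, a ubiquitin ligase of innate immune signalling, was lower by -1.75 (adjusted p = 0.0493), from ratios of 3.50 and 3.35 to 0.776 and 1.24, with Ribo-seq at 28.4 and 26.8 against 8.51 and 12.6 TPM. GTF2H2C_2 was lower by -11.47 (adjusted p = 0.00675), with Ribo-seq at 7.78 and 16.1 TPM in control and 0.008 and 0.001 TPM in ADAR1 siRNA libraries. It has near-identical copies, so its own value is uncertain.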

How the results depend on the processing

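With total count scaling 1418 genes were high and 3536 low, 5 lists had a median of 1 or more and 12 a median of -1 or less, 12 of 47 list medians changed sign, and the ribosome load of UQCRC2 (-0.61), GAPDH (-0.38) and VIM (-0.35) fell below 0. UQCRC2 was also below 0 with upper-quartile scaling (-0.11), limma on log2 TPM with a pseudocount of 1 (-0.20) and no low-count filter (-0.017), and ran from -0.11 to 0.15 with 1 library left out. That limma fit left 7 lists at 1 or more, and a mean count minimum of 200 left 928 low genes. On counts without length, an alternative chosen after seeing the data, 2 lists were at -1 or less, 6 list medians and 167 called genes changed sign, and MRPL37 (0.49), PSMD1 (0.35), CCT4 (0.44), OAZ1 (0.29) and EREG (-0.26) reversed. The length correlation was -0.477 with Input length, -0.536 on counts, -0.680 on counts with Input length, -0.759 in the second deposited pair and -0.758 with ADAR1 siRNA. Fits without 1 library gave 2489 to 2512 high and 2041 to 2091 low genes, the lone library being assumed to vary like the other pair.

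With the replicate number as a block, 2499 genes were high and 2050 low, and no call of the 121 named genes changed. The block moved the interaction from 0 to 98 genes higher and from 3 to 225 lower. Deviations of same-numbered libraries correlated at 0.0035 in control and 0.385 in ADAR1 siRNA libraries. Length from protein sequence was not run. The cause of the differences between alternatives was not tested. Genes with few footprints limit the low end: 1605 genes with Input reads had too few to be counted.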
